A study of Phlebiopsis gigantea with 8 samples.

Results

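The genes described here encode the sugar and other major facilitator transporters of *Phlebiopsis gigantea*, a white-rot fungus that colonizes fresh conifer wood. A gene model was taken when its putative function or its InterPro text named a major facilitator (MFS), a sugar, sugar/inositol or hexose transporter, or a general substrate transporter. This rule gave 162 of the 11892 models in the table. Of these, 25 were put among the sugar carriers and 137 among the other carriers. A sugar carrier had an InterPro sugar transporter text, a gene ontology term for sugar and proton symport, or a function name that gives a sugar, unless its name gave another substrate. The other carriers comprised 105 models with the MFS-1 domain, 22 with the MFS general substrate fold, 7 with the general substrate transporter domain, a quinate transporter and 2 nucleotide-sugar transporters. Nucleotide-sugar transporters belong to another superfamily and matched the rule only because their InterPro text contains the words sugar transporter. Only 29 members carry a function name other than hypothetical, so that most are known by domain alone.

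Mycelium came from cultures in 250 ml of basal salts that were harvested on day 5. Carbon came from milled loblolly pine in 6 of them and from glucose in the rest (Glc, 2 cultures). The pine either kept its resin and other extractives, acetone having only been added and evaporated (NELP, 3 cultures), or had lost them to acetone in a Soxhlet apparatus (ELP, 3 cultures). Each culture gave 1 library of poly-A RNA, and the kit used does not mark strand. Values are RPKM, in which the authors divided the reads of a gene by its length and by the size of the library. Levels may thus be compared between genes, while comparisons between libraries also depend on scaling, as described below. RPKM values approximate each transcript's share of the mRNA, so that a lower share and a rise of other transcripts cannot be told apart.

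Members of the major facilitator superfamily are single-chain membrane proteins that move small solutes by alternately opening to either side of the membrane. In fungi, many sugar carriers of this superfamily take up hexoses or pentoses by facilitated diffusion or together with protons, which the plasma membrane ATPase pumps out. Wood-decay fungi release these sugars outside the cell with glycoside hydrolases, and other carriers of the superfamily handle phosphate, vitamins, organic acids, siderophores and drugs.

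Read totals were not used here, but the lowest values of each library allow depth to be compared. The third lowest value of RPKM times gene length was taken to stand for 1 read, which was not checked. On that reading, a single read in a gene of 1 kb was worth 0.0547 to 0.0980 RPKM in the NELP libraries, 0.139 to 0.168 RPKM in the ELP libraries, and 0.127 and 0.0707 RPKM in Glc 1 and Glc 2. By this estimate the ELP libraries were the shallowest, with Glc 1 close to them. No member was at 0 in any library, and all 25 sugar carriers and 136 of the other carriers averaged at least 1 RPKM and were tested. The remaining model, Phlgi1_404972, averaged 0.990 RPKM. Replicates of a wood medium were close to each other, whereas the Glc libraries were not. Across the tested members the correlation of log2 values between replicates was 0.96 to 0.97 in NELP, 0.93 to 0.98 in ELP and 0.61 in Glc, a description over members that share their libraries. Between Glc 1 and Glc 2, 31 members (19.3%) differed more than 4-fold, against 10.3% of all tested genes. Of these, 23 were higher in Glc 2 and 8 in Glc 1. For comparison, at most 3 members differed by as much between any pair of NELP or ELP replicates. Every comparison with glucose rests on these unlike libraries, and the NELP and ELP comparisons share them.

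**Figure D1:**
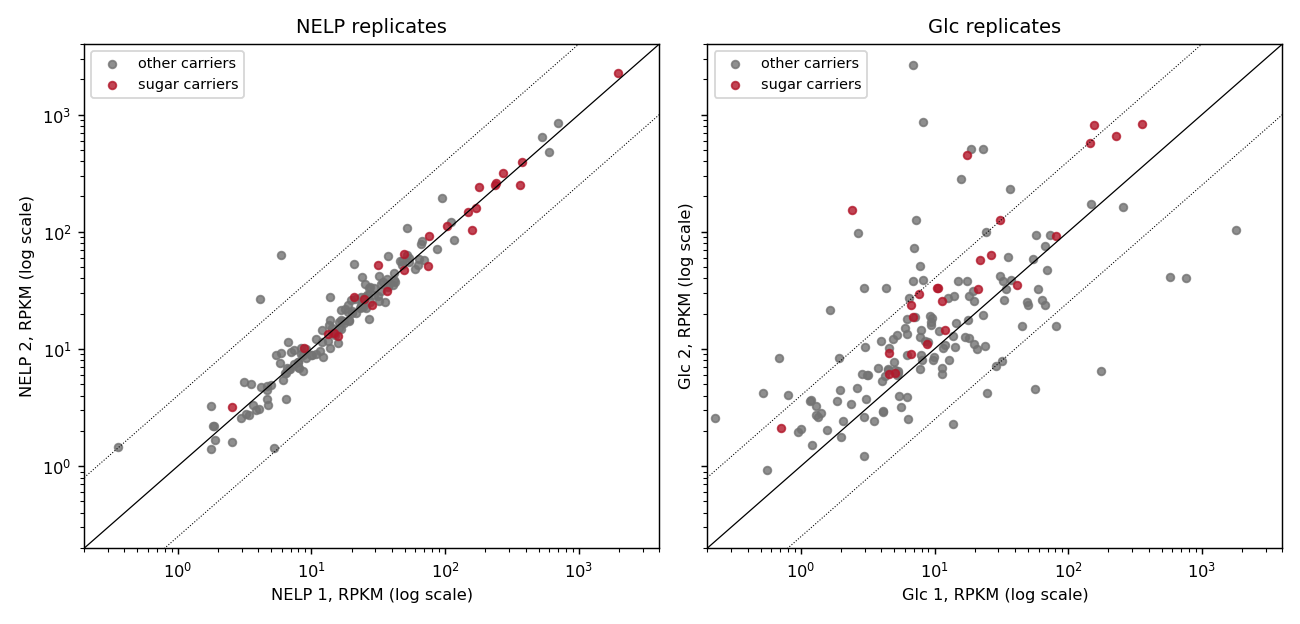
RPKM of the 162 members in NELP 2 against NELP 1 (left) and in Glc 2 against Glc 1 (right), both axes on log scales. Each point is a gene, sugar carriers in red and other carriers in grey. The solid line marks equal values and the dotted lines a 4-fold difference. In NELP, 2 of the tested members lay outside the dotted lines, against 31 in Glc.

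The sugar carriers had a higher median level than the other carriers in each medium. The median sugar carrier averaged 67.4 RPKM in NELP, 50.8 RPKM in ELP and 21.8 RPKM in Glc, while the median other carrier averaged 16.8, 17.1 and 11.6 RPKM in the same media. Above 100 RPKM were 11 sugar carriers in NELP, 10 in ELP and 5 in Glc, and 6, 8 and 11 other carriers. These are levels, and no test was made between the classes.

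Relative to glucose, 12 of the 25 sugar carriers rose on NELP and 12 on ELP, and 1 fell on each wood. Here and below a gene rose or fell where limma, a linear model fitted across all genes on log2(RPKM + 0.5), gave an adjusted p under 0.05 (Benjamini-Hochberg over 10999 genes), and differences on this scale are given with their standard error (SE). The fit shares an estimate of spread per gene across the media. Glc replicates were farther apart than wood replicates, so errors and p-values against glucose tend to be too small. Of all genes tested, 29.5% rose and 3.67% fell on NELP, and 37.3% rose and 5.14% fell on ELP. The median log2 difference of the sugar carriers was 1.00 for NELP over Glc and 1.02 for ELP over Glc, against 0.54 and 0.60 for all genes tested. Among the other carriers, 35 of 136 rose and 6 fell on NELP, and 48 rose and 10 fell on ELP, with medians of 0.57 and 0.60. The shares of other carriers that rose, 25.7% and 35.3%, were thus near those of all genes. Wood and glucose libraries did not overlap for 15 sugar carriers higher and 1 lower on NELP (all genes 49.7% and 7.84%), and for 13 higher and 1 lower on ELP (all genes 51.4% and 8.93%).

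The median of all genes lay above 0, and the counts depended on scaling. When the libraries were rescaled by the median of gene ratios, the median of all genes moved to -0.03 in both comparisons with glucose. The median of the sugar carriers was then 0.41 for NELP over Glc and 0.38 for ELP over Glc, and that of the other carriers 0.06 and 0.01. After rescaling, 4 sugar carriers rose and 1 fell on NELP (all genes 6.61% and 6.96%), and 7 rose and 2 fell on ELP (all genes 10.8% and 11.4%). Likewise, 11 other carriers rose and 14 fell on NELP, and 15 rose and 24 fell on ELP. Calls over all genes shifted from higher to lower in the same way, as the rescaling moves every gene of a library alike. With only the 2 media compared in the fit, 5 sugar carriers rose on NELP (all genes 7.79% higher and 1.12% lower) and 8 rose on ELP (all genes 17.4% higher and 2.25% lower), and none fell. With library weights estimated per medium, which give the unlike Glc libraries less weight, 2 sugar carriers and 1 other carrier rose on each wood and none fell, where 0.682% of all genes rose on NELP and 0.482% on ELP. The 4 sugar carriers called higher on both woods after rescaling were Phlgi1_98430, Phlgi1_33910, Phlgi1_69667 and Phlgi1_127752.

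**Figure D2:**
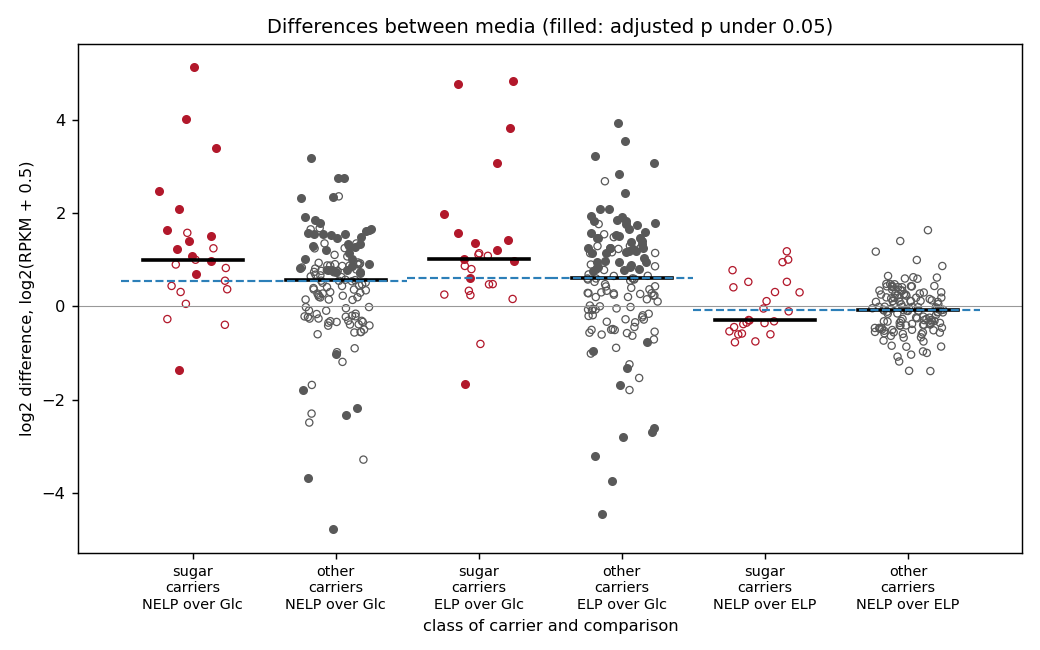
Log2 difference of log2(RPKM + 0.5) for the 25 sugar carriers (red) and 136 tested other carriers (grey) in the comparisons NELP over Glc, ELP over Glc and NELP over ELP. Filled points had an adjusted p under 0.05 in limma, black bars are class medians and blue dashed lines the median of all 10999 genes tested. The sugar carrier medians of 1.00 and 1.02 lie above the lines at 0.54 and 0.60, and no point is filled for NELP over ELP.

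The annotated hexose transporter, Phlgi1_98430, had the highest mean of all members on each wood. In ELP 3 alone another carrier, Phlgi1_81682, was higher, at 1703 RPKM. The hexose transporter had 1960, 2273 and 2429 RPKM in NELP 1 to NELP 3 and 2155, 1941 and 1380 RPKM in ELP 1 to ELP 3, against 30.9 and 127 RPKM in Glc 1 and Glc 2. Every wood library was above both Glc libraries by more than 10-fold. The log2 difference was 5.13 ± 0.52 (SE) for NELP over Glc (limma, adjusted p = 0.0020) and 4.83 ± 0.52 for ELP over Glc (adjusted p = 0.0021). Both calls held in each of the 16 alternative analyses, with log2 differences of 4.12 to 6.14 and 3.82 to 5.84.

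This single transcript set much of the class total. Summed over the 25 sugar carriers, expression was 4651, 4971 and 5138 RPKM in NELP, 5309, 5229 and 4098 RPKM in ELP, and 1223 and 4101 RPKM in Glc 1 and Glc 2. The total in Glc 2 therefore lay just above that in ELP 3, and only Glc 1 was low. The hexose transporter made up 42.1, 45.7 and 47.3% of the sum on NELP and 40.6, 37.1 and 33.7% on ELP, but only 2.52 and 3.09% on glucose, where it ranked 7 in both libraries.

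Without the hexose transporter the remaining 24 sugar carriers summed to 2691, 2698 and 2709 RPKM in NELP, 3155, 3287 and 2719 RPKM in ELP, and 1192 and 3975 RPKM in Glc. Wood libraries then lay between the 2 Glc libraries. In Glc the leading sugar carrier was Phlgi1_93500, annotated as a high-affinity glucose transporter, with 29.1% of the sum in Glc 1 and 20.4% in Glc 2. As a share of all RPKM in a library, the sugar carriers came to 0.574, 0.647 and 0.678% (NELP), 0.628, 0.651 and 0.553% (ELP), and 0.137 and 0.475% (Glc).

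**Figure D3:**
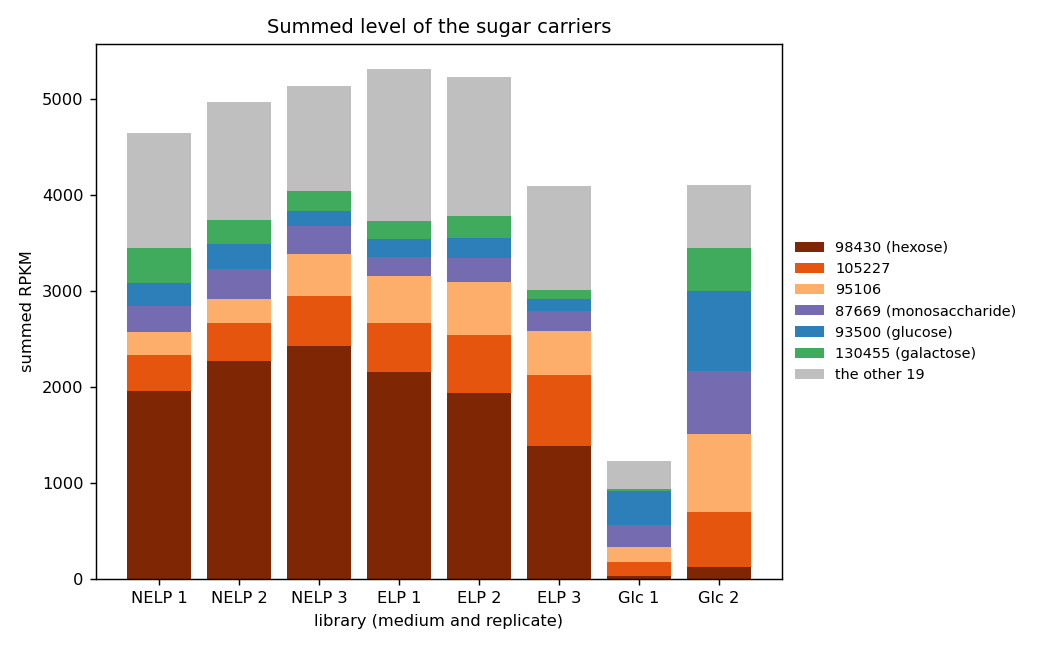
Summed RPKM of the 25 sugar carriers in each library, split into the 6 with the highest mean over the 8 libraries and the other 19. The hexose transporter Phlgi1_98430 (dark brown, at the base) takes 33.7 to 47.3% of the bar in the wood libraries and 2.52 and 3.09% in Glc 1 and Glc 2. The Glc 2 bar, 4101 RPKM, is as tall as that of ELP 3, 4098 RPKM.

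Besides the hexose transporter, 3 sugar carriers rose strongly on both woods. Phlgi1_33910, a transporter with the general substrate transporter domain, had 170, 159 and 170 RPKM in NELP and 367, 294 and 211 RPKM in ELP, against 8.75 and 11.1 RPKM in Glc. It counts as a sugar carrier by its gene ontology term alone, as its name gives no sugar. Its error was the smallest of these 4 sugar carriers, with log2 differences of 4.01 ± 0.27 (SE, adjusted p = 0.00030) on NELP and 4.78 ± 0.27 (adjusted p = 0.00016) on ELP. Both calls held in all 16 alternatives.

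Phlgi1_69667 had 179, 240 and 191 RPKM in NELP and 339, 326 and 186 RPKM in ELP, against 10.5 and 33.1 RPKM in Glc (log2 difference 3.39 ± 0.48 and 3.83 ± 0.48, adjusted p = 0.0050 and 0.0027 in limma). Phlgi1_127752 had 103, 111 and 107 RPKM in NELP and 200, 176 and 122 RPKM in ELP, against the same rounded values of 10.5 and 33.1 RPKM in Glc (2.49 ± 0.44 and 3.08 ± 0.44, adjusted p = 0.0087 and 0.0036). The wood and glucose libraries did not overlap for either gene, which was a condition for naming them here. Their calls held in 15 of the 16 alternatives and were lost with library weights per medium (adjusted p = 0.071 and 0.052 for Phlgi1_69667, and 0.086 and 0.055 for Phlgi1_127752). Both carry the InterPro sugar transporter signature and are named only as MFS transporters.

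The other sugar carriers that rose on both woods changed less. Phlgi1_17607, annotated as a sugar transporter, had 148, 148 and 121 RPKM in NELP and 193, 158 and 160 RPKM in ELP, against 81.0 and 91.2 RPKM in Glc. Its log2 differences of 0.69 (adjusted p = 0.039) and 0.98 (adjusted p = 0.0098) were close to the shift of all genes, and neither passed after rescaling. The call on NELP held without Glc 2 but with no other library left out. Phlgi1_229021, Phlgi1_203941, Phlgi1_128472 and Phlgi1_22040, which have no function name, rose by 0.97 to 1.39 on NELP and 1.35 to 1.99 on ELP on the log2 scale, with means of 12.6 to 31.2 RPKM in NELP, 16.2 to 47.2 RPKM in ELP and 5.35 to 12.8 RPKM in Glc.

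A further 6 sugar carriers passed on a single wood, but none of them passed the direct comparison of the woods. On NELP these were Phlgi1_73996, Phlgi1_130034 and Phlgi1_94735. Phlgi1_73996 had 160, 104 and 99.4 RPKM in NELP, 66.9, 66.1 and 31.5 RPKM in ELP, and 26.4 and 63.4 RPKM in Glc (log2 difference 1.52, adjusted p = 0.042 for NELP over Glc). The NELP libraries were above all ELP libraries for the 3 genes, with adjusted p of 0.24, 0.38 and 0.57 for NELP over ELP. On ELP they were Phlgi1_103234, Phlgi1_31456 and Phlgi1_27246, with log2 differences of 0.61 to 1.22 for ELP over Glc.

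The sugar carrier that fell on both woods was the high-affinity glucose transporter Phlgi1_93500. It had 241, 261 and 152 RPKM in NELP and 187, 207 and 129 RPKM in ELP, against 356 and 836 RPKM in Glc. All wood libraries were below both Glc libraries. The log2 difference was -1.36 ± 0.42 (SE, adjusted p = 0.041) for NELP over Glc and -1.67 ± 0.42 (adjusted p = 0.016) for ELP over Glc, and without Glc 2 it was -0.75 (adjusted p = 0.12) and -1.05 (adjusted p = 0.041). On NELP the call was lost without any library other than Glc 1.

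The remaining 9 sugar carriers passed in neither comparison with glucose, among them several of the most abundant. Phlgi1_105227 was second in all wood libraries, with 375, 391 and 519 RPKM in NELP and 510, 604 and 749 RPKM in ELP, against 146 and 572 RPKM in Glc. Phlgi1_95106 had 236, 249 and 439 RPKM in NELP, 492, 547 and 456 RPKM in ELP, and 157 and 809 RPKM in Glc. The monosaccharide transporter Phlgi1_87669 had 270, 315 and 294 RPKM in NELP, 203, 254 and 206 RPKM in ELP, and 226 and 653 RPKM in Glc. For these 3 genes the wood values lay between the Glc values or overlapped with them.

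Of these 9, the carriers with the widest gap between Glc 1 and Glc 2 were Phlgi1_97197 and Phlgi1_130455. The galactose transporter Phlgi1_130455 had 361, 251 and 213 RPKM in NELP and 185, 229 and 90.4 RPKM in ELP, against 17.6 and 448 RPKM in Glc 1 and Glc 2. All wood values lay within the range of the 2 Glc libraries, as did those of Phlgi1_97197, a sugar transporter with 49.5, 64.4 and 38.8 RPKM in NELP, 28.1, 29.1 and 18.1 RPKM in ELP, and 2.42 and 154 RPKM in Glc. Phlgi1_106732, likewise named sugar transporter, had 76.1, 92.1 and 52.6 RPKM in NELP, 60.0, 56.2 and 36.1 RPKM in ELP, and 21.9 and 57.6 RPKM in Glc (adjusted p = 0.11 and 0.41 in limma). Phlgi1_65930, Phlgi1_73407 and Phlgi1_504566 averaged 27.3, 10.3 and 2.68 RPKM in NELP, 29.3, 9.60 and 2.83 RPKM in ELP, and 26.7, 7.90 and 1.42 RPKM in Glc.

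**Figure D4:**
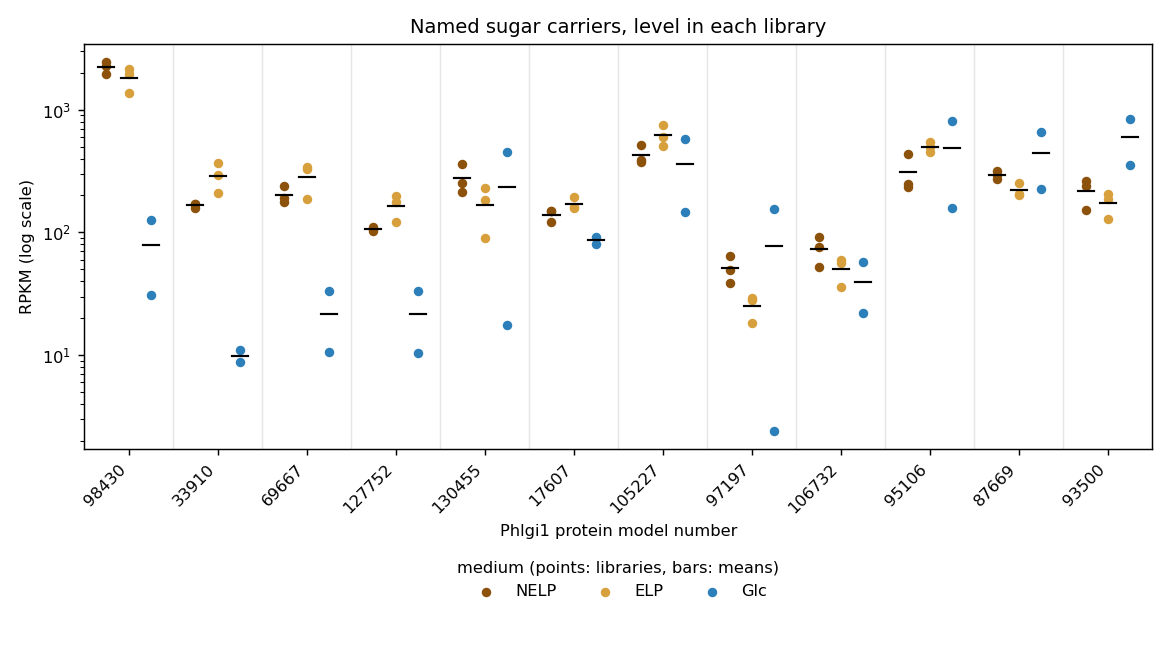
RPKM (log scale) of the 12 named sugar carriers in each library, with NELP, ELP and Glc from left to right for each gene. Points are libraries and black bars are means of 3, 3 and 2 libraries, and genes are ordered by their mean log2 difference between wood and glucose. For Phlgi1_98430, Phlgi1_33910, Phlgi1_69667 and Phlgi1_127752 all wood points lie above the Glc points, and for Phlgi1_93500 all lie below. Lack of overlap was a condition for naming Phlgi1_33910, Phlgi1_69667 and Phlgi1_127752.

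The number of calls moved with single libraries. Sugar carriers higher for NELP over Glc numbered 19 without Glc 2 (all genes 48.7%) and 6 without Glc 1 (27.0%). They numbered 6, 5 and 6 without NELP 1, NELP 2 or NELP 3 (all genes 13.1%, 8.69% and 15.4%) and 7 without ELP 2 (18.6%). For ELP over Glc they numbered 20 without Glc 2 (all genes 51.2%) and 10 or 11 without any other library (23.5 to 36.7%). Other carriers higher for NELP over Glc numbered 70 without Glc 2, 14, 13 and 19 without NELP 1, NELP 2 or NELP 3 and 18 without ELP 2, and those higher for ELP over Glc numbered 79 without Glc 2 and 29 without ELP 2. Without Glc 1 or Glc 2, 15 and 18 other carriers were lower on NELP (all genes 6.54% and 11.0%), and 19 and 24 on ELP (9.77% and 11.2%). The calls over all genes thus moved with the same libraries.

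Several of the other carriers rose strongly on wood as well. Phlgi1_73600, an MFS transporter with the same general substrate transporter domain as the hexose transporter, had 69.8, 57.8 and 62.2 RPKM in NELP and 164, 155 and 116 RPKM in ELP, against 11.3 and 6.95 RPKM in Glc. Its log2 differences were 2.76 ± 0.27 (SE, adjusted p = 0.0017) and 3.94 ± 0.27 (adjusted p = 0.00036). Both calls held in all 16 alternatives.

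Among MFS-1 domain models, Phlgi1_42492 had 31.9, 25.7 and 31.1 RPKM in NELP and 21.7, 34.7 and 70.6 RPKM in ELP, against 2.95 and 2.63 RPKM in Glc (3.19 ± 0.43 and 3.54 ± 0.43, adjusted p = 0.0049 and 0.0026 in limma). Phlgi1_100757 had 66.5, 79.1 and 81.1 RPKM in NELP and 77.8, 91.7 and 157 RPKM in ELP, against 6.24 and 18.1 RPKM in Glc (2.76 and 3.22, adjusted p = 0.0072 and 0.0035). Neither overlapped with glucose, which was a condition for naming them here. Phlgi1_417388 had 53.5, 54.9 and 48.3 RPKM in NELP and 21.1, 31.9 and 33.9 RPKM in ELP, against 7.80 and 12.7 RPKM in Glc (2.33 and 1.46, adjusted p = 0.0037 and 0.0079). All its NELP libraries were above its ELP libraries, and the call on ELP was lost after rescaling.

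Phlgi1_108834 rose on ELP with a wide spread, at 20.2, 46.9 and 137 RPKM, against 5.23 and 6.06 RPKM in Glc (log2 difference 3.07 ± 0.66, adjusted p = 0.010 in limma), and had 19.1, 17.4 and 21.1 RPKM in NELP. Substrates of these 5 MFS carriers are not given by the annotation.

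The transporter Phlgi1_123755 had the largest NELP over ELP difference among the members. It had 702, 839 and 593 RPKM in NELP, 140, 226 and 367 RPKM in ELP, and 256 and 162 RPKM in Glc. All NELP libraries were above the other 5 libraries. It rose on NELP over Glc (1.79 ± 0.41, adjusted p = 0.017) but not on ELP over Glc (0.15 ± 0.41, adjusted p = 0.78), and the log2 difference of NELP over ELP, 1.64 ± 0.37, had an adjusted p of 0.13. The call on NELP was lost in 5 of the 16 alternatives, which were rescaling, library weights per medium, the replicate block, and leaving out NELP 1 or NELP 2.

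Other carriers that fell on both woods included an adjacent gene pair. Phlgi1_59743 had 13.8, 27.9 and 10.9 RPKM in NELP and 10.9, 13.2 and 10.4 RPKM in ELP, against 73.2 and 94.5 RPKM in Glc (-2.32 ± 0.38 and -2.81 ± 0.38, adjusted p = 0.0071 and 0.0031 in limma). Its neighbour Phlgi1_358193 had 3.13, 5.20 and 2.66 RPKM in NELP and 2.41, 3.21 and 1.97 RPKM in ELP, against 17.7 and 17.8 RPKM in Glc (-2.18 ± 0.30 and -2.61 ± 0.30, adjusted p = 0.0049 and 0.0022). Both are named MFS transporter, and the highest wood value of each was in NELP 2. Without strand, reads of overlapping neighbours cannot be separated.

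Phlgi1_19109, a model known by its MFS domain, fell as well. It had 37.3, 62.5 and 41.2 RPKM in NELP and 47.4, 57.8 and 43.1 RPKM in ELP, against 148 and 171 RPKM in Glc (-1.79 ± 0.27 and -1.69 ± 0.27, adjusted p = 0.0063 and 0.0047 in limma). No wood library reached the Glc values, which was a condition for naming this gene.

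The largest decreases went with Glc libraries that were far apart. Their errors borrow from the closer wood replicates and are too small. Phlgi1_290895 had 4.07, 3.05 and 3.32 RPKM in NELP and 4.01, 6.37 and 3.42 RPKM in ELP, against 22.9 and 505 RPKM in Glc 1 and Glc 2. Its log2 difference for NELP over Glc was -4.78 ± 1.06 (adjusted p = 0.015), and -2.56 without Glc 2. Phlgi1_92536 had 20.0, 20.2 and 5.62 RPKM in NELP and 17.4, 13.8 and 8.52 RPKM in ELP, against 758 and 40.5 RPKM in Glc 1 and Glc 2, with a log2 difference of -3.68 ± 1.11 (adjusted p = 0.039) that was -1.58 (adjusted p = 0.12) without Glc 1. The NELP call of Phlgi1_290895 was lost without NELP 2, and that of Phlgi1_92536 without any library other than Glc 2.

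Phlgi1_440441 and Phlgi1_181948 passed for ELP over Glc alone (adjusted p = 0.048 and 0.037 in limma). Phlgi1_440441 had 3.63, 3.98 and 2.49 RPKM in ELP and 176 and 6.49 RPKM in Glc, and Phlgi1_181948 had 1.53, 2.46 and 2.54 RPKM in ELP and 56.1 and 4.56 RPKM in Glc. Without Glc 1 their log2 differences were -0.87 (adjusted p = 0.045) and -0.94 (adjusted p = 0.056). Both calls were lost when any NELP or ELP library was left out.

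Some of the most abundant other carriers passed in no comparison, and single libraries of them stood apart. Phlgi1_81682, with the highest mean of this class, had 532, 643 and 723 RPKM in NELP, 118, 500 and 1703 RPKM in ELP, and 1786 and 104 RPKM in Glc. Phlgi1_29870 had 25.0, 27.9 and 31.3 RPKM in NELP and 25.7, 49.1 and 50.0 RPKM in ELP, against 6.86 and 2652 RPKM in Glc, where it supplied 33.6% of the summed RPKM of the other carriers in Glc 2. Phlgi1_27519 had 596, 477 and 453 RPKM in NELP and 771, 681 and 481 RPKM in ELP, against 18.6 and 507 RPKM in Glc. For Phlgi1_81682 and Phlgi1_29870 the Glc values enclosed all wood values.

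**Figure D5:**
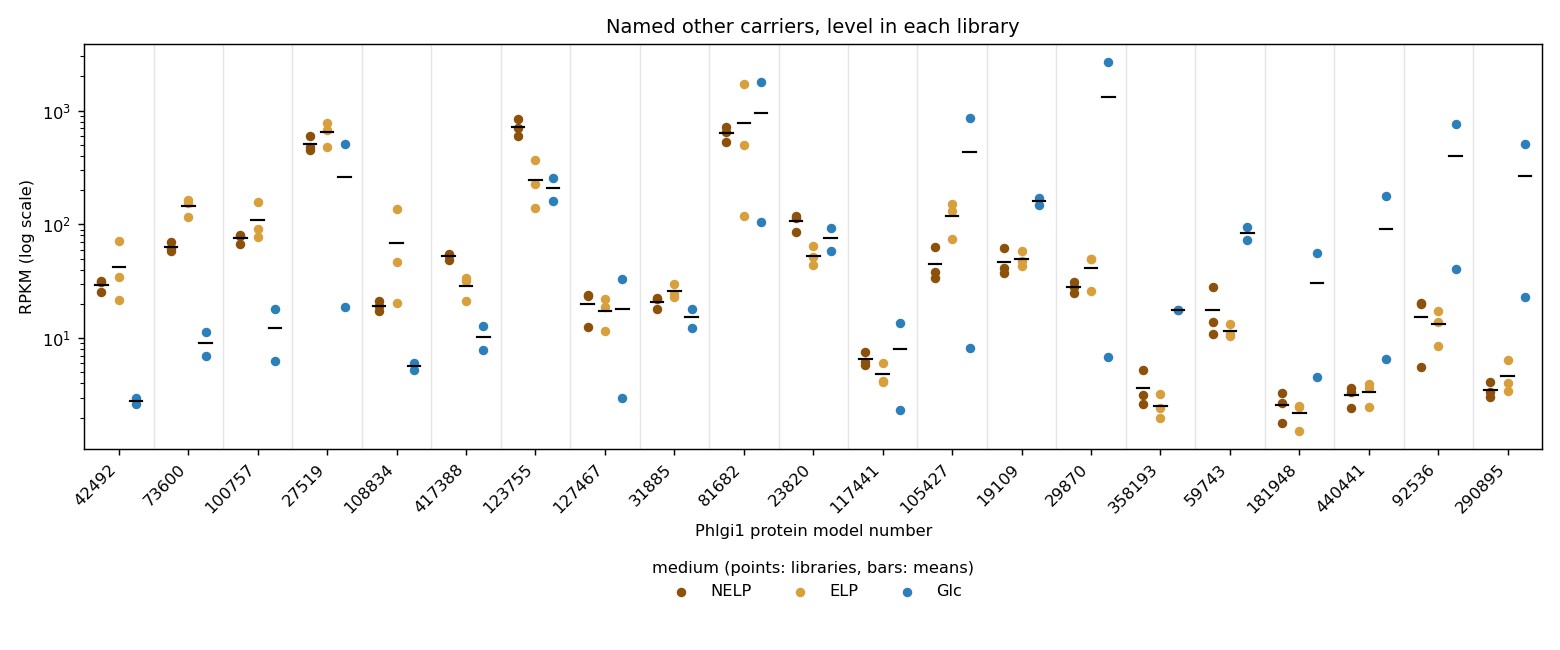
RPKM (log scale) of the 21 named other carriers in each library, with NELP, ELP and Glc from left to right for each gene, ordered as in the plot of sugar carriers. Points are libraries and black bars are means. The Glc points are far apart for Phlgi1_29870 (6.86 and 2652 RPKM), Phlgi1_105427, Phlgi1_92536 and Phlgi1_290895, and close together for Phlgi1_42492, Phlgi1_19109 and Phlgi1_59743.

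Few of the other carriers have a named substrate. The quinate transporter Phlgi1_105427, whose substrate is a cyclic plant acid, had 37.7, 33.9 and 63.5 RPKM in NELP, 73.8, 131 and 152 RPKM in ELP, and 8.16 and 862 RPKM in Glc. The pantothenate transporter Phlgi1_127467, for a vitamin precursor of coenzyme A, had 23.6, 23.7 and 12.6 RPKM in NELP, 18.7, 21.9 and 11.5 RPKM in ELP, and 2.95 and 32.9 RPKM in Glc. In both cases the Glc values enclosed all wood values.

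Of the inorganic phosphate transporters, Phlgi1_23820 had 117, 85.9 and 115 RPKM in NELP and 43.5, 64.3 and 51.3 RPKM in ELP, with 57.7 and 93.5 RPKM in Glc. Its NELP and ELP libraries did not overlap (log2 difference 1.00 ± 0.26, adjusted p = 0.17 in limma). Phlgi1_117441 averaged 6.54 ± 0.92 RPKM in NELP and 4.79 ± 1.10 RPKM in ELP (SD, n = 3 each), and had 13.7 and 2.31 RPKM in Glc. The acetyl-CoA transporter Phlgi1_31885, whose animal counterpart imports acetyl-CoA into the endoplasmic reticulum, had 24.6, 22.9 and 30.0 RPKM in ELP against 18.1 and 12.3 RPKM in Glc (0.76, adjusted p = 0.039), and 17.9, 21.9 and 22.4 RPKM in NELP. That call held in 5 of the 16 alternatives and was lost after rescaling.

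The presence of extractives was addressed by NELP over ELP, which does not involve the Glc libraries directly. No member passed in either class, where 1 of the 10999 genes tested (0.00909%) did in limma. After rescaling it was again no member, and 0.0273% of all genes. The smallest adjusted p among the members was 0.097, for Phlgi1_79557, with 18.6, 20.8 and 27.1 RPKM in NELP and 9.42, 11.0 and 8.03 RPKM in ELP. At an unadjusted p under 0.05 there were 2 sugar carriers and 14 other carriers, or 16 of 161, against 16.3% of all genes tested. With 3 libraries against 3, an exact permutation test of a single gene cannot go below 0.10.

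NELP and ELP did not overlap for 13 sugar carriers, 5 of them higher on NELP and 8 lower, and for 53 other carriers, 20 higher and 33 lower. Over all genes tested, 16.7% had all NELP libraries higher and 22.1% had all NELP libraries lower. When only the NELP and ELP libraries entered the fit, whose replicates are closer than those of glucose, 12 members passed, 6 higher and 6 lower, against 6.12% and 4.28% of all genes. The higher ones were Phlgi1_123755, Phlgi1_23820, Phlgi1_97197, Phlgi1_417388, Phlgi1_79557 and Phlgi1_11937. The lower ones included Phlgi1_105427 and Phlgi1_73600. The call of a difference between the woods therefore depended on whether the spread of the Glc libraries was included.

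All 162 members were placed on the Phlgi1 genome assembly by their protein numbers. In gene order, 26 members formed 14 pairs of direct neighbours within 5000 bases. Both genes were called in the same direction in 1 pair for NELP over Glc and in 3 pairs for ELP over Glc. Of all genes tested, 37.3% were called higher and 5.14% lower on ELP. The share among all neighbouring gene pairs was not counted. Phlgi1_59743 and Phlgi1_358193 were the pair on NELP and were among those on ELP. The other pairs on ELP were Phlgi1_409557 with Phlgi1_70571 and Phlgi1_218404 with Phlgi1_121198, all 4 higher. Phlgi1_440441 and its neighbour Phlgi1_124671 were called in opposite directions.

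A neighbour annotated as a glycoside hydrolase was found for 10 of the 162 members (6.17%) and for 3.12% of all placed genes, a description without a test. Phlgi1_127752 was the 1 sugar carrier among them (4.0% of the 25) and had such a gene on each side. Its neighbour Phlgi1_89793 (GH51, a family with arabinofuranosidases) had 82.1, 102 and 95.4 RPKM in NELP and 113, 96.1 and 76.8 RPKM in ELP, against 7.25 and 31.3 RPKM in Glc. On the other side Phlgi1_105922 (GH28, a family with polygalacturonases that cleave pectin) had 22.5, 28.3 and 33.3 RPKM in NELP and 41.6, 29.4 and 27.5 RPKM in ELP, against 5.25 and 23.1 RPKM in Glc. For all 3 adjacent genes, Glc 1 was the lowest library, and Glc 2 lay below every wood library for the carrier and the GH51 gene.

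Models matched as enzymes that act on sugars after uptake were called in both directions. Of 23 models found by the names of sugar kinases, epimerases, isomerases and pentose or polyol oxidoreductases, 8 rose and 2 fell on NELP, and 8 rose and 4 fell on ELP, with median log2 differences of 0.41 and 0.01 (all genes 0.54 and 0.60). That is 34.8% higher and 8.70% lower on NELP (all genes 29.5% and 3.67%), and 34.8% higher and 17.4% lower on ELP (all genes 37.3% and 5.14%). The search text also matched models with a mevalonate and galactokinase domain and a 6-phosphofructokinase. The 2 models that fell on NELP were this 6-phosphofructokinase, Phlgi1_29645, and Phlgi1_126636. The latter has a mannose-6-phosphate isomerase domain text but is defined as a mannose-1-phosphate guanylyltransferase. Both also fell on ELP. In Glc 1 and Glc 2, Phlgi1_29645 had 1270 and 68.6 RPKM, and Phlgi1_126636 had 390 and 86.6 RPKM. The NADPH-dependent xylose reductase Phlgi1_99086, which converts xylose to xylitol, had 66.2, 67.0 and 72.9 RPKM in NELP and 64.9, 61.0 and 43.7 RPKM in ELP, against 9.65 and 14.7 RPKM in Glc (2.48 ± 0.26 and 2.18 ± 0.26, adjusted p = 0.0023 and 0.0025 in limma). Phlgi1_130158, annotated as the xylulokinase that phosphorylates xylulose later in the same route, had 36.2, 38.6 and 47.2 RPKM in NELP and 25.1, 23.6 and 21.9 RPKM in ELP, against 290 and 39.7 RPKM in Glc 1 and Glc 2. It fell on ELP (-2.17 ± 0.69, adjusted p = 0.036) and had a log2 difference of -1.40 (adjusted p = 0.14) on NELP. A second model with that annotation, Phlgi1_130858, had log2 differences of -0.29 and -0.47 (adjusted p = 0.38 and 0.16).

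The only plasma membrane proton pump found by name, Phlgi1_131172, had 312, 501 and 460 RPKM in NELP and 185, 260 and 421 RPKM in ELP, against 562 and 712 RPKM in Glc. It fell on ELP (-1.21 ± 0.37, adjusted p = 0.033 in limma) and had a log2 difference of -0.60 (adjusted p = 0.23) on NELP. Of 20 carriers with a tetracycline or drug resistance text, relatives outside the 162 members, 6 rose and 1 fell on NELP and 8 rose and 1 fell on ELP, with medians of 0.53 and 0.43. The shares that rose, 30% and 40%, were near the 29.5% and 37.3% of all genes.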

How the data were processed

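Poly-A RNA of 8 cultures was sequenced by the authors on a HiSeq2000 (CASAVA 1.8.2, per the submitters' processing notes). The deposited RPKM values were made by the authors with SeqNGen and QSeq (DNAStar). How reads matching several related carriers were assigned could not be learnt, so values of paralogs are uncertain to that extent.

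A single limma fit (version 3.58.1, R 4.3.3) of log2(RPKM + 0.5) covered the 3 media, without a block, for the 10999 genes with a mean of 1 RPKM or more. The pseudocount understates changes of low genes. The script was tested on simulated data with equal spread in all media. It was thus not tested for the wider spread of the Glc libraries.

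Named members are, per comparison and direction, up to 8 with the largest difference among those called, averaging at least 10 RPKM in the higher medium and without overlap, plus the 10 with the highest mean and those with a named substrate. Others were named after their values were seen. Members and lists were chosen with earlier results of these data known. Relative depth was estimated from the third lowest value of RPKM times gene length, with lengths and gene order from the Phlgi1 annotation (11825 protein numbers matched). Alternatives were a pseudocount of 1 or 0.1, no filter, a mean of at least 5 RPKM, rescaling by the median of gene ratios, a fit of only the 2 media compared, library weights per medium, a replicate block, and each library left out.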

Additional observations from a re-analysis of the deposited data

How the results depend on the processing

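Pseudocounts and a minimum of 5 RPKM kept each count within 1.5 times. With no filter, sugar carriers lower for NELP over Glc were 0. After rescaling, sugar carriers higher were 4 (NELP over Glc) and 7 (ELP over Glc), lower for ELP over Glc 2, and other carriers were 11 higher and 14 lower (NELP over Glc) and 15 higher and 24 lower (ELP over Glc). Of all genes, 6.61% were then higher and 6.96% lower for NELP over Glc, and 10.8% and 11.4% for ELP over Glc. With only the 2 media in the fit, sugar carriers for NELP over Glc were 5 higher and 0 lower, and 0 were lower for ELP over Glc. Other carriers were then 17 higher and 3 lower (NELP over Glc) and 26 higher and 4 lower (ELP over Glc), and 1 sugar carrier and 11 other carriers differed for NELP over ELP. Of all genes, 7.79% were higher and 1.12% lower for NELP over Glc, and 17.4% and 2.25% for ELP over Glc. For NELP over ELP these shares were 6.12% and 4.28%. Library weights per medium gave 2 sugar carriers and 1 other carrier higher and 0 lower in either comparison with glucose. Of all genes, 0.682% were higher and 0.209% lower for NELP over Glc, and 0.482% and 0.164% for ELP over Glc. For NELP over ELP, 2 sugar carriers and 13 other carriers then differed, where 7.07% of all genes were higher and 6.29% lower.

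Leaving out 1 library gave 5 to 19 sugar carriers higher and 0 to 4 lower for NELP over Glc, and 10 to 20 higher and 1 to 4 lower for ELP over Glc. Other carriers ranged from 13 to 70 higher and 4 to 18 lower for NELP over Glc, and from 29 to 79 higher and 5 to 24 lower for ELP over Glc. Between NELP and ELP, 0 to 1 sugar carriers and 0 to 11 other carriers differed. The highest counts of carriers raised on wood came without Glc 2, and those of sugar carriers lower on wood without Glc 1. With 1 Glc library left, that library is assumed to vary like the wood libraries. Without NELP 1, NELP 2 or NELP 3 there were 14, 13 and 19 other carriers higher for NELP over Glc, against 35, and 18 without ELP 2. The shares of all genes were 13.1%, 8.69%, 15.4% and 18.6% in the same order. Without ELP 2, 29 were higher for ELP over Glc (all genes 23.5%), against 48.

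The labels do not say that equal replicate numbers mark related cultures, so the numbers were not used as pairs. Deviations of equally numbered NELP and ELP libraries correlated at 0.40, -0.15 and 0.50. Those of equally numbered wood and Glc libraries correlated at -0.20 to 0.20. Unequal numbers were not compared, so these values cannot show whether the numbers mark pairs. With a replicate block, sugar carriers were 9 higher and 0 lower for NELP over Glc and 10 higher and 1 lower for ELP over Glc. Other carriers were 28 higher and 5 lower, and 48 higher and 7 lower. Of all genes, 23.6% were then higher and 2.63% lower for NELP over Glc, and 34.2% and 4.15% for ELP over Glc.

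Of 35 calls of named members, none changed sign in any alternative. Most were named for large differences without overlap, where leaving out a library cannot reverse the sign, so this says little. The number kept was 35 with either pseudocount, 29 after rescaling, 24 with only the 2 media fitted and 6 with library weights per medium, which give the unlike Glc libraries less weight. Those 6 were Phlgi1_98430, Phlgi1_33910 and Phlgi1_73600, each on both woods. The 2 Glc libraries limit every comparison with glucose. The median SD of log2 values among tested members was 0.59 in Glc, 0.22 in ELP and 0.21 in NELP. Read depth, which limits carriers of a few RPKM, was by estimate lowest in ELP.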

Other observations

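A neighbouring pair of MFS models, Phlgi1_183272 and Phlgi1_75526, stood out in a single wood library. Phlgi1_183272 had 63.4 RPKM in NELP 2, against 5.92 and 5.96 RPKM in NELP 1 and NELP 3, 6.38, 4.04 and 4.10 RPKM in ELP, and 6.18 and 3.90 RPKM in Glc. Phlgi1_75526 had 26.6 RPKM in NELP 2, against 4.10 and 4.34 RPKM in NELP 1 and NELP 3, 5.45, 6.68 and 4.74 RPKM in ELP, and 2.06 and 2.44 RPKM in Glc. Neither passed in a comparison between media, and the pair was chosen after its values were seen.

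Some carriers differed widely among the ELP libraries, ELP 3 being the highest. Phlgi1_38187, which lies beside a GH28 gene, had 25.3, 35.5 and 35.5 RPKM in NELP and 30.5, 77.4 and 129 RPKM in ELP 1 to ELP 3, against 14.2 and 10.4 RPKM in Glc. Phlgi1_107513, beside a GH31 gene, had 31.7, 41.6 and 18.7 RPKM in NELP and 41.6, 56.1 and 93.2 RPKM in ELP, against 19.6 and 25.9 RPKM in Glc. ELP 1 and ELP 3 differed more than 2-fold for 22 of the tested members (13.7%), against 8.0% of all genes.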
